A study of Mus musculus with 12 samples.

Results

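The CC chemokines described here are the 9 genes Ccl2, Ccl3, Ccl4, Ccl5, Ccl6, Ccl7, Ccl9, Ccl12 and Ccl24, taken by gene symbol from the 26608 gene rows of deposited RNA-seq counts. The 12 libraries, 3 in each of 4 groups, came from mouse lung cells, about 250 sorted cells per library. CrePos animals carried Cx3cr1cre with deleted Hif1a (Hif1αΔ/Δ), and CreNeg controls carried floxed Hif1a (Hif1αflox/flox) without Cre. The protein of Hif1a is the part of HIF-1, a transcription factor, whose amount follows oxygen. All 4 groups shared the C57Bl/6 strain and an exposure of 3 weeks to hypoxia plus SU5416, an inhibitor of VEGF receptors, so no group shows the cells without it. IM stands for interstitial macrophages, which live in the lung tissue outside the airspaces, and RM for nonclassical monocytes, which patrol the vessel wall. The groups are CrePos IM (libraries CrePos_IM649, CrePos_IM650 and CrePos_IM661), CreNeg IM (CreNeg_IM648, CreNeg_IM659 and CreNeg_IM660), CrePos RM (CrePos_RM649, CrePos_RM650 and CrePos_RM661) and CreNeg RM (CreNeg_RM648, CreNeg_RM657 and CreNeg_RM659). Values of 3 libraries are given in that order. The Cre allele, driven by Cx3cr1, was carried by CrePos animals alone, so its effect and that of losing Hif1a cannot be told apart. No age is given, and nothing in the labels says that each number is 1 animal. P-values therefore measure the spread between these libraries, which may be technical.

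CC chemokines are small secreted proteins that bind G-protein-coupled receptors on leukocytes and guide their migration along a gradient. Macrophages and monocytes are major sources, and inflammatory signals through NF-kB and AP-1 switch many of the genes on within a short time. Ccl2, Ccl7 and Ccl12 signal through Ccr2 and draw monocytes out of the blood. Ccl3 signals through Ccr1 among other receptors, Ccl4 attracts monocytes and lymphocytes, and Ccl5, which T and NK cells make in large amounts, binds Ccr1 and Ccr3 among others. Ccl6 and Ccl9 are rodent ligands of Ccr1 made by myeloid cells, and Ccl24 is an eotaxin that draws eosinophils through Ccr3.

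In the GRCm38 annotation GENCODE M21, 8 of the 9 genes lie on chromosome 11 and Ccl24 lies on chromosome 5 (chr5:135569937-135573049, minus strand). A first cluster holds Ccl2 (chr11:82035571-82037453), Ccl7 (chr11:82045712-82047525) and Ccl12 (chr11:82101845-82103400), all on the plus strand. A second cluster holds, on the minus strand, Ccl5 (chr11:83525778-83530518), Ccl9 (chr11:83572919-83578636), Ccl6 (chr11:83587882-83593087) and Ccl3 (chr11:83647844-83649355), followed by Ccl4 on the plus strand (chr11:83662584-83664683). Only 8.3 kb separate Ccl2 from Ccl7, 9.2 kb separate Ccl9 from Ccl6, and 13.2 kb separate Ccl3 from Ccl4. All 9 are protein-coding genes, and counts are sums over their exons. Each of these sets holds related sequences. Reads without a unique alignment, 4.4 to 9.0% of all reads per library, were in a summary row of their own and outside the gene counts. How many of them came from these genes is not known, so levels within a set carry that uncertainty.

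RefSeq promoter windows of the build GRCm38.p6 were at hand for 4 members. The 150 bases before the transcription start are shown for all 4, Ccl3, Ccl6, Ccl9 and Ccl12, since no other member had a window. Of these, Ccl3 and Ccl9 were lower in CrePos RM, Ccl6 neighbours Ccl9, and Ccl12 was counted in IM alone. Capitals mark matches to an NF-kB consensus, to the AP-1 site TGANTCA or to the PU.1 core GAGGAA on either strand. The windows are chr11:83649379-83649528 (minus strand), chr11:83593088-83593237 (minus strand), chr11:83578637-83578786 (minus strand) and chr11:82101695-82101844 (plus strand), in this order.
Ccl3: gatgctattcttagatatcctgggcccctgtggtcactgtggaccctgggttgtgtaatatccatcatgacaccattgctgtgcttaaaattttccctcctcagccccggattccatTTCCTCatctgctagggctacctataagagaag
Ccl6: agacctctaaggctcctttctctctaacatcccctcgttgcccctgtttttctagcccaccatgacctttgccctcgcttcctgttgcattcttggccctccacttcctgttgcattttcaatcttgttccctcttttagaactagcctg
Ccl9: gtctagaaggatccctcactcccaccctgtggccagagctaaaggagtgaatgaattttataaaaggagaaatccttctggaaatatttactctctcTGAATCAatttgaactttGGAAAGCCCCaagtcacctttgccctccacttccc
Ccl12: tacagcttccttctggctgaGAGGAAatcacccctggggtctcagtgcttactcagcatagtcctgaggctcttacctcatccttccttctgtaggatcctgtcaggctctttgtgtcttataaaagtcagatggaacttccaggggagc

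The Ccl9 window held an NF-kB consensus match at bases -35 to -26 and an AP-1 match at bases -53 to -47, counted from the start base as 0. The GAGGAA core lay at -33 to -28 on the opposite strand in Ccl3 and at -130 to -125 in Ccl12, and the Ccl6 window held none of these motifs. In windows of 300 bases around all 32851 RefSeq starts, 8.46% held the NF-kB consensus, 7.81% the AP-1 site and 28.3% GAGGAA. The core letters of the HIF response element, ACGTG and GCGTG, were searched on both strands and were in none of the 4 windows, against 19.6% and 32.4% of all windows. These matches describe letters and carry no measurement of binding. The windows of Ccl6 and Ccl9 aligned over 74 columns around their starts, 59 of them identical (79.7%), the best-scoring local alignment among the 6 pairs.

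Gene counts summed to between 5332600 and 14099509 per library. The CreNeg IM libraries had the highest sums, at least 13333039, against at most 9054232 in CrePos IM and 8583265 in CreNeg RM. The CrePos RM libraries stood apart from each other. CrePos_RM649 had the lowest sum and the fewest genes with a count (10526), and CrePos_RM661 had the most genes with a count (17179) and the highest endothelial marker sum (11855 CPM, against at most 5863 in the other libraries). The summed marker lists went with the sort labels, although single markers did not all do so. Summed IM markers, led by Apoe, Csf1r and Mrc1, lay between 12539 and 14937 CPM (counts scaled to library size with TMM factors) in CrePos IM and between 18425 and 18838 in CreNeg IM, against 1189 to 2410 in CrePos RM and 3582 to 4620.0 in CreNeg RM. Summed nonclassical monocyte markers, led by Ace, Nr4a1 and Cd36, reached 4714 to 9043 CPM in CrePos RM and 10002 to 16184 CPM in CreNeg RM. In CrePos IM they reached 2042 to 2297 CPM and in CreNeg IM 2548 to 3090. Changes of IM over RM were above 0 for 3 of these 15 markers in CrePos and 2 in CreNeg. They were below 0 for 1 of 15 IM markers in each genotype. The nonclassical marker Cx3cr1 averaged 199 CPM in CrePos IM against 123 in CrePos RM, and 392 against 219 in CreNeg. Hif1a itself, counted over all its exons, averaged 199 ± 6.50 CPM in CrePos IM against 228 ± 15.6 in CreNeg IM, and 172 ± 34.8 CPM in CrePos RM against 225 ± 19.6 in CreNeg RM (SD, n = 3 each). Neither difference passed edgeR's test (adjusted p = 0.938 and 0.407), and a gene count does not measure the loss of single exons. Levels below are CPM for 1 gene across libraries. Levels between genes are compared per kilobase of exon (RPKM). Changes come from edgeR's quasi-likelihood test over 14254 genes with Benjamini-Hochberg adjusted p-values, where under 0.05 counts as passing, and each log2 fold change is given with its standard error (SE). All 9 members passed the filter on low counts, Ccl12 through IM libraries alone.

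The summed level of the 9 genes was higher in IM than in RM and, within each cell type, lower in CrePos than in CreNeg libraries. Their summed RPKM was 1056 ± 239 in CrePos IM, 1707 ± 251 in CreNeg IM, 149 ± 23.1 in CrePos RM and 585 ± 145 in CreNeg RM (SD, n = 3 each). No CrePos library reached the level of any CreNeg library of the same cell type. They accounted for 0.134% of all gene counts in CrePos IM, 0.213% in CreNeg IM, 0.0255% in CrePos RM and 0.0734% in CreNeg RM on average.

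**Figure D1:**
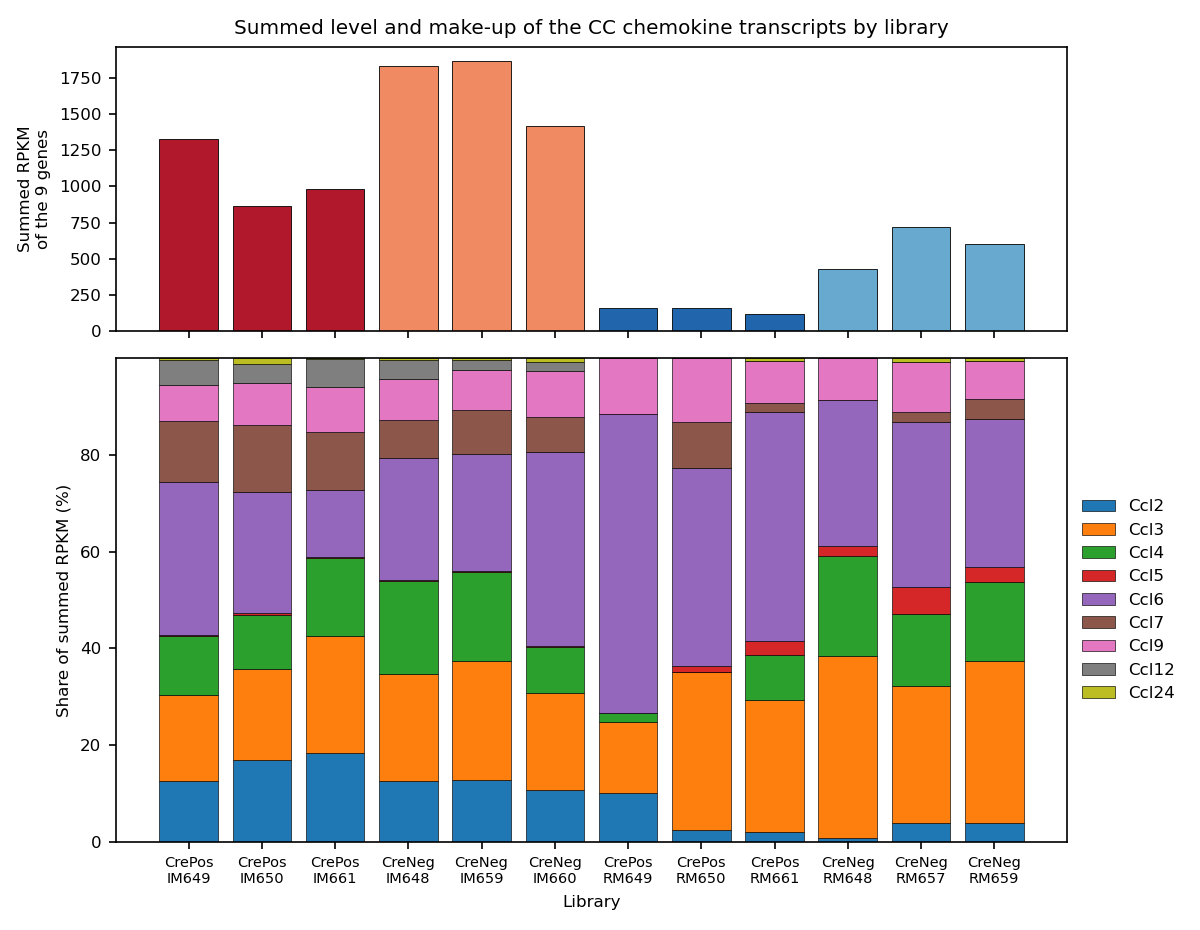
Summed RPKM of the 9 CC chemokine genes in each library (upper bars) and the share of that sum taken by each gene in percent (lower stacked bars), with libraries on the horizontal axis by group. Ccl6 and Ccl3 take the most in every group on average, and Ccl12 has no share in any RM library.

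The order of levels differed between the cell types. In CrePos IM the mean RPKM ran from Ccl6 (257) through Ccl3 (212), Ccl2 (164), Ccl4 (139), Ccl7 (135), Ccl9 (88.2), Ccl12 (53.0) and Ccl24 (5.28) to Ccl5 (2.16). In CreNeg IM it ran from Ccl6 (495) through Ccl3 (384), Ccl4 (277), Ccl2 (207), Ccl9 (149), Ccl7 (139), Ccl12 (45.9) and Ccl24 (6.86) to Ccl5 (3.10). Neighbours among the top 5 overlapped between libraries in CrePos IM and among the top 6 in CreNeg IM, so their order is not resolved, whereas Ccl12 lay below the 6 genes above it in both. In CrePos RM the order began with Ccl6 (74.9), Ccl3 (36.6) and Ccl9 (16.8), whose libraries did not overlap except those of Ccl9 with the next gene. In CreNeg RM it began with Ccl3 (189), Ccl6 (187), Ccl4 (98.6) and Ccl9 (52.9), and Ccl3 and Ccl6 overlapped. These orders, and the shares below, also rest on exon lengths of GENCODE M21, 3045 bases for Ccl9 against 766 for Ccl3. The annotation behind the counts is not stated, so an order without overlap holds for these lengths only. By mean CPM, which uses no length, Ccl9 lay above Ccl3 in CrePos RM and in CreNeg RM. Among the Ccr2 ligands, Ccl2 took 12.6 to 18.3% of the summed RPKM in CrePos IM, 10.8 to 12.7% in CreNeg IM, 2.04 to 10.1% in CrePos RM and 0.780 to 3.95% in CreNeg RM. On average Ccl7 took 12.9% in CrePos IM, 8.08% in CreNeg IM, 3.84% in CrePos RM and 2.05% in CreNeg RM. Ccl4 took 3.82% in CrePos RM against 17.4% in CreNeg RM, and Ccl6 took 50.1% against 31.7%, on average.

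**Figure D2:**
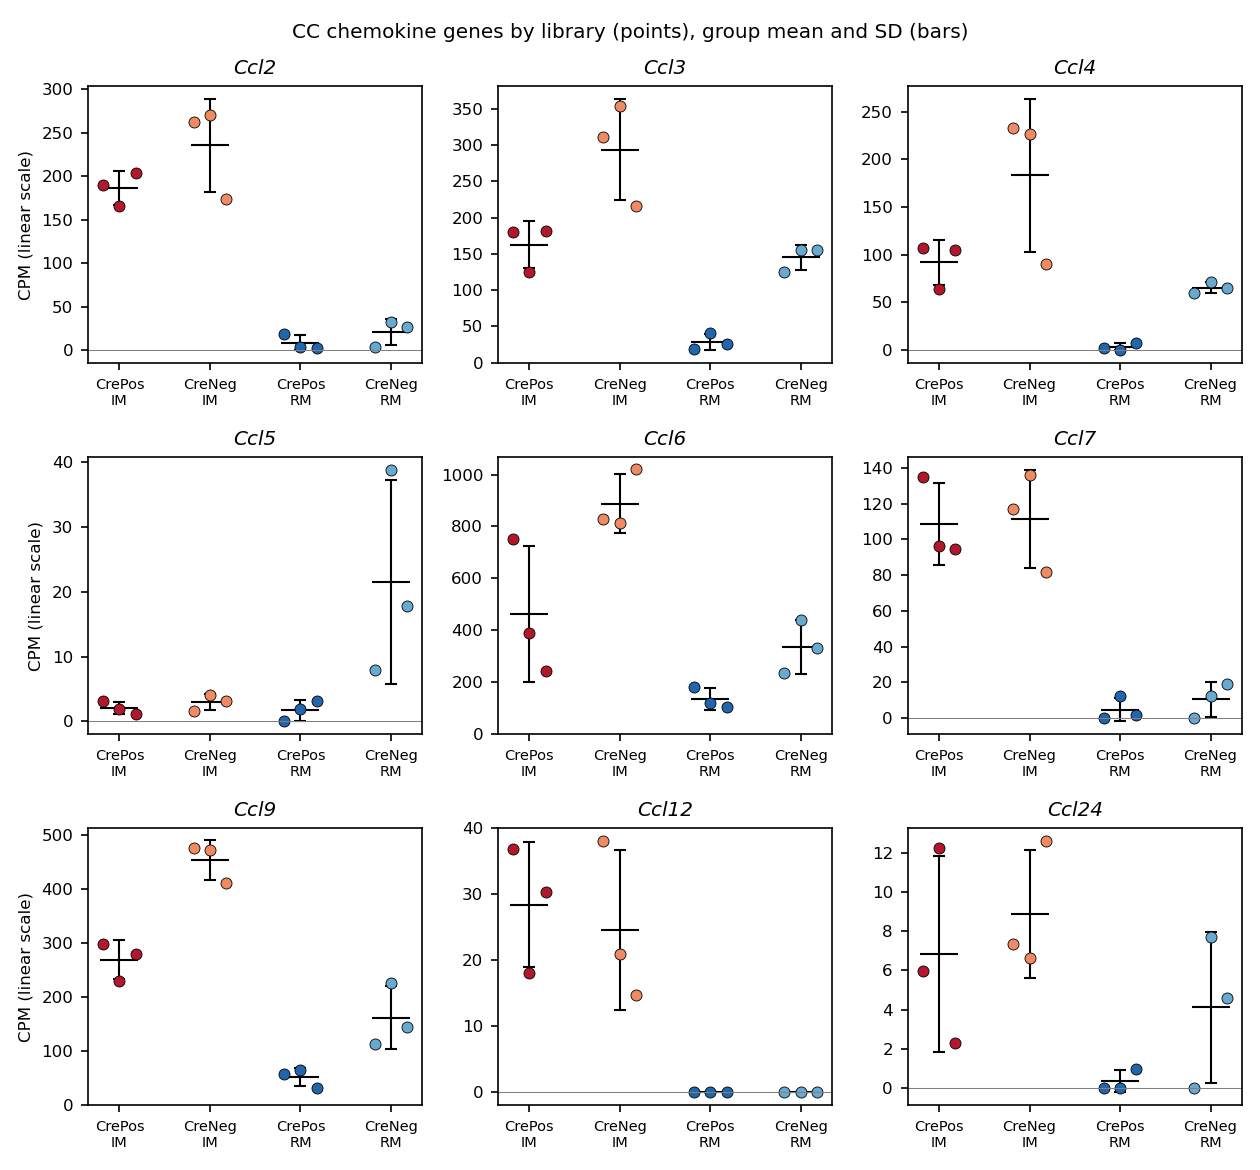
CPM of each CC chemokine gene (linear vertical axis) in the 12 libraries by group on the horizontal axis, with points for libraries and bars for the group mean and SD. CrePos RM libraries lie below all CreNeg RM libraries for Ccl3, Ccl4, Ccl5, Ccl6 and Ccl9, and Ccl12 is at 0 in all 6 RM libraries.

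The first comparison asked whether the nonclassical monocytes of CrePos animals differed from those of controls. Ccl3, Ccl4 and Ccl9 were lower in CrePos RM, so 3 of the 9 genes fell and none rose. Over all genes tested, 0.421% passed in this comparison, of which 0.337% fell and 0.0842% rose. Ccl3 and Ccl4 are inflammatory attractants of monocytes, NK cells and T cells, and Ccl9 attracts Ccr1-bearing myeloid cells.

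Ccl3 had 18.3, 40.3 and 25.5 CPM in CrePos RM, against 125, 156 and 155 CPM in CreNeg RM. The groups did not overlap, and the fitted level was 5.18-fold lower in CrePos RM (log2 fold change -2.37, SE 0.32, adjusted p = 0.00624, edgeR). Ccl4 had 2.15, 0 and 7.63 CPM in CrePos RM, against 59.5, 70.7 and 65.1 CPM in CreNeg RM. CrePos_RM650 had no Ccl4 count, where 3 counts would have been 0.441 CPM, while its Ccl3 level was the highest of its group. The fitted change of Ccl4 was -4.25 on the log2 scale (SE 0.81, adjusted p = 0.0395, edgeR). Ccl9 had 57.1, 64.4 and 32.2 CPM in CrePos RM, against 113, 226 and 145 CPM in CreNeg RM. It was 3.15-fold lower in CrePos RM (log2 fold change -1.66, SE 0.30, adjusted p = 0.0325, edgeR), again with no overlap.

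Among the genes that did not pass, Ccl6 and Ccl5 were below every control library as well. Ccl6 had 181, 118 and 104 CPM in CrePos RM, against 235, 441 and 331 CPM in CreNeg RM (log2 fold change -1.32, SE 0.37, adjusted p = 0.0956, edgeR). Ccl5 had 0, 1.91 and 3.20 CPM in CrePos RM, against 7.97, 38.9 and 17.8 CPM in CreNeg RM (log2 fold change -3.63, SE 1.28, adjusted p = 0.169, edgeR), and DESeq2 called it (adjusted p = 0.0104). In all, 5 of the 9 genes had every CrePos RM library below every CreNeg RM library, against 11.4% of all genes. None had every CrePos RM library above, against 5.9% of all genes. The Ccr2 ligands Ccl2 and Ccl7 were low and uneven in RM. Ccl2 had 18.8, 4.26 and 2.84 CPM in CrePos RM and 3.84, 32.4 and 26.2 CPM in CreNeg RM (adjusted p = 0.367). Ccl7 had 0.165, 12.2 and 1.86 CPM in CrePos RM and 0, 12.5 and 19.3 CPM in CreNeg RM (adjusted p = 0.647). CrePos_RM649 held 114 counts of Ccl2 but 1 count of Ccl7, whereas CrePos_RM650 held 29 and 83, so the neighbouring genes did not move together there. Ccl24 had 0, 0 and 0.976 CPM in CrePos RM and 0, 7.71 and 4.61 CPM in CreNeg RM (adjusted p = 0.329), and Ccl12 had no count in any of the 6 libraries. The median log2 fold change of the 8 genes with a value was -2.01, against -0.10 over all genes.

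Within sequencing lanes, which the file names give, the 3 genes that passed could not change direction, since their groups did not overlap. In lane 6, with 1 CrePos and 2 CreNeg libraries, Ccl3 was at 40.3 CPM against a mean of 155, Ccl4 at 0 against 67.9 and Ccl9 at 64.4 against 185. In lane 8, with 2 CrePos libraries and 1 CreNeg library, Ccl3 averaged 21.9 CPM against 125, Ccl4 4.89 against 59.5 and Ccl9 44.7 against 113. Means in lane 8 were higher in CrePos for Ccl2 (10.8 against 3.84 CPM), Ccl7 (1.01 against 0) and Ccl24 (0.488 against 0).

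Leaving out any single library kept Ccl3 past the threshold (adjusted p between 0.00254 and 0.0420). Ccl4 lost its call (adjusted p between 0.0582 and 0.119) without any 1 of the CreNeg IM libraries, CrePos_IM649, CrePos_IM650, CreNeg_RM648, CreNeg_RM657 and CrePos_RM649, and its change was -5.95 (0.00478) without CrePos_RM661. Ccl9 lost its call (adjusted p between 0.0601 and 0.142) without any 1 of the CreNeg IM libraries, CrePos_IM649 and CreNeg_RM657, and with the lane pair as a covariate (0.0639). In a fit of the 6 RM libraries alone no gene of 12038 passed, and the adjusted p was 0.191 for Ccl3, 0.299 for Ccl4 and 0.294 for Ccl9, with fitted changes of -2.26, -4.16 and -1.54. Ccl4 also lost its call with no filter on low counts (0.114). Without CrePos_RM661, 570 genes passed in this comparison in place of 60. With the size factors of DESeq2 in place of TMM the median of all genes moved to 0.04, and all genes split into 28 higher and 31 lower, against 12 and 48 with TMM. Relative to the median of all genes, Ccl3 changed by -2.27 with TMM and -2.26 with those size factors, Ccl4 by -4.14 and -4.12, and Ccl9 by -1.55 and -1.54.

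Markers of other cells moved with these groups. All 14 endothelial markers, led by Ptprb, Calcrl and Cdh5, had fitted changes above 0, none passed the test, and their summed level was 4787 to 11855 CPM in CrePos RM against 944 to 3589 in CreNeg RM, with no marker at 0. All 15 nonclassical monocyte markers had changes below 0 and 1 passed, and their summed level was lower in every CrePos RM library, as given above. Summed T and NK cell markers, of which Gzmb averaged 7.31 CPM in CrePos RM and 33.0 CPM in CreNeg RM, lay between 1.65 and 79.1 CPM in CrePos RM and between 46.9 and 177 in CreNeg RM, with no marker at 0 in either group. Changes were above 0 for 9 of 10 epithelial markers and 8 of 9 fibroblast and smooth muscle markers tested, and below 0 for 14 of 15 IM markers, and none of these passed. Summed classical monocyte markers were uneven among the controls, at 169 to 5943 CPM in CreNeg RM against 355 to 989 in CrePos RM. Of these 8 markers 4 had changes above 0 and 4 below, and none passed. The part of these cells in the change of any CC chemokine was not tested. In bulk libraries, fewer cells of a type and less RNA per cell cannot be told apart.

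**Figure D3:**
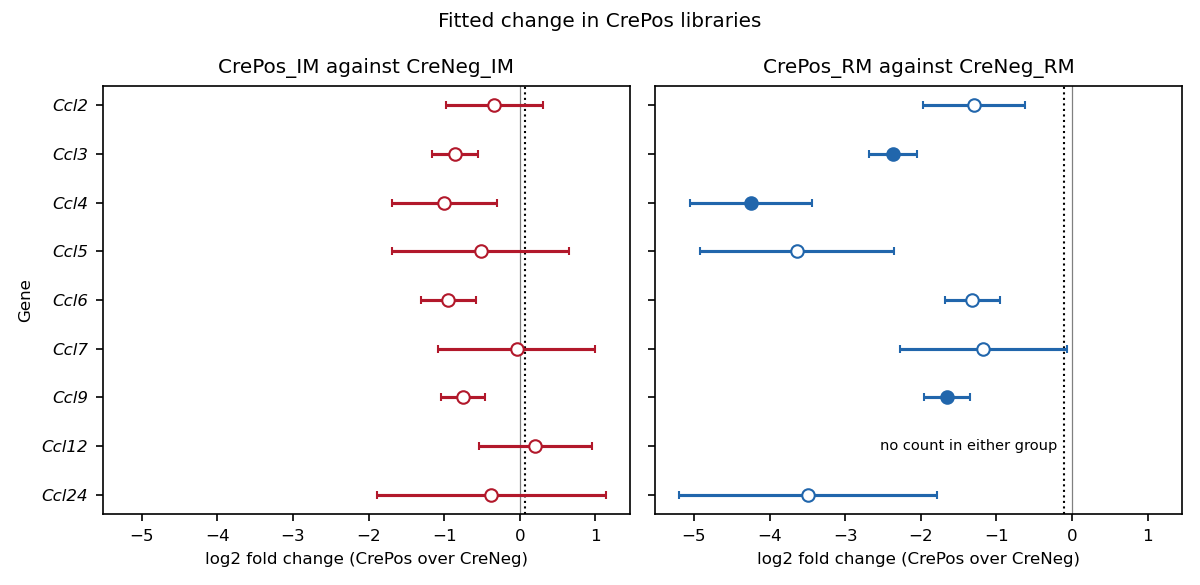
Fitted log2 fold change (horizontal axis) of each CC chemokine gene, CrePos over CreNeg, in IM (left) and RM (right), with bars for the SE, filled points for adjusted p under 0.05 and a dotted line at the median of all genes. Ccl3, Ccl4 and Ccl9 are filled in RM at -2.37, -4.25 and -1.66, and no point is filled in IM.

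The same comparison in interstitial macrophages gave lower values for most members and no call. None of the 9 genes passed edgeR's test, where 0.288% of all genes passed, of which 0.0491% fell and 0.239% rose. At an unadjusted p under 0.05 there were 3, Ccl3, Ccl6 and Ccl9, as there were 1403 of the 14254 genes tested, and DESeq2 called none of the 9. These 3 had every CrePos IM library below every CreNeg IM library, as did 13.4% of all genes, and no member had them all above, as 16.2% of all genes did.

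Ccl3 had 180.0, 125 and 182 CPM in CrePos IM, against 312, 354 and 217 CPM in CreNeg IM (log2 fold change -0.86, SE 0.30, adjusted p = 0.305, edgeR). Ccl6 had 751, 391 and 243 CPM in CrePos IM, against 830.4, 814 and 1021 CPM in CreNeg IM (log2 fold change -0.94, SE 0.36, adjusted p = 0.351, edgeR). Ccl9 had 298, 229 and 279 CPM in CrePos IM, against 475, 472 and 410.2 CPM in CreNeg IM (log2 fold change -0.75, SE 0.30, adjusted p = 0.368, edgeR). The spread of Ccl6 within CrePos IM was wide, with CrePos_IM649 close to the controls and CrePos_IM661 lowest, while Ccl9 was more even there. Ccl4 had 107, 63.9 and 104 CPM in CrePos IM, against 233, 227 and 89.9 CPM in CreNeg IM, and CreNeg_IM660 lay among the CrePos values (adjusted p = 0.780, edgeR).

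The Ccr2 ligands differed little between the genotypes in IM, against a wide error. Ccl2 had 189.6, 166 and 204 CPM in CrePos IM and 262, 270.3 and 174 CPM in CreNeg IM (log2 fold change -0.34, SE 0.64). Ccl7 had 135, 96.3 and 94.5 CPM in CrePos IM and 117, 136 and 81.9 CPM in CreNeg IM (log2 fold change -0.04, SE 1.04). Ccl12 had 303, 138 and 224 counts in CrePos IM, a mean of 28.4 ± 9.50 CPM, and 523, 285 and 185 counts in CreNeg IM, a mean of 24.7 ± 12.1 CPM (SD, n = 3 each; log2 fold change 0.21, SE 0.75). The libraries of the genotypes overlapped for all 3 genes, with an adjusted p of 0.994 for Ccl2 in edgeR and higher ones for Ccl7 and Ccl12, which does not show that the levels were equal. Ccl24 had 5.96, 12.2 and 2.30 CPM in CrePos IM and 7.37, 6.64 and 12.6 CPM in CreNeg IM. Ccl5 was near its lowest level, with 3.16, 1.84 and 1.22 CPM in CrePos IM and 1.68, 4.06 and 3.20 CPM in CreNeg IM. The median log2 fold change of the 9 genes was -0.52, against 0.07 over all genes. All 10 alveolar macrophage markers had changes below 0 and none passed, with a summed level of 571 to 1713 CPM in CrePos IM against 1785 to 1901 in CreNeg IM and no marker at 0. Summed IM markers were lower in CrePos IM too, as given above, with 12 of 15 changes below 0 and none passed. The part of these cells in the IM values was not tested.

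Within lane 5, with 1 CrePos and 2 CreNeg libraries, Ccl3 was at 125 CPM against a mean of 285, Ccl6 at 391 against 917 and Ccl9 at 229 against 441. Within lane 7, with 2 CrePos libraries and 1 CreNeg library, Ccl3 averaged 181 CPM against 312, Ccl6 497 against 830.4 and Ccl9 289 against 475. The libraries of these genes did not overlap between the genotypes, so their direction within lanes was fixed. Means were higher in CrePos for Ccl12 (18.2 against 17.9 CPM) and Ccl24 (12.2 against 9.64) in lane 5, and for Ccl5 (2.19 against 1.68) in lane 7. The share of reads outside annotated exons moved with the genotype in IM, at 59.2 to 69.8% in CrePos IM against 38.5 to 44.2% in CreNeg IM, and it overlapped in RM, at 55.1 to 72.7% in CrePos RM against 58.1 to 66.8% in CreNeg RM. With that share as a covariate, the fitted IM change became 1.71 for Ccl4, 1.71 for Ccl5 and 4.60 for Ccl24, and no gene passed. In a fit of the 6 IM libraries alone Ccl3 (adjusted p = 0.0411) and Ccl9 (0.0232) passed, and 549 genes were called higher and 401 lower.

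The difference between the genotype effects, IM minus RM, was tested directly. No member and no other gene passed edgeR's test, and 1271 of all genes and 3 members had an unadjusted p under 0.05. DESeq2 called 108 genes, none of them a member. The difference was 1.52 for Ccl3 (SE 0.43, unadjusted p = 0.00291, adjusted p = 0.369), 3.25 for Ccl4 (SE 1.02, unadjusted p = 0.00647, adjusted p = 0.426) and 0.90 for Ccl9 (SE 0.42, unadjusted p = 0.0467, adjusted p = 0.557), all on the log2 scale. The median over all genes was 0.19 with TMM and 0.04 with the size factors of DESeq2. A stronger fall in RM than in IM is thus not shown for any member.

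The cell types were then compared within each genotype. IM and RM also ran in different sequencing lanes, so lane and cell type cannot be told apart. In CreNeg animals 4 of the 9 genes, Ccl2, Ccl6, Ccl9 and Ccl12, were higher in IM than in RM and none was lower, where 7.48% of all genes passed, 2.81% higher and 4.67% lower. In CrePos animals 6 genes, Ccl2, Ccl3, Ccl4, Ccl6, Ccl9 and Ccl12, were higher in IM and none was lower, where 4.57% of all genes passed, 3.22% higher and 1.35% lower. Ccl12, counted in both, entered the test through IM libraries alone. These comparisons share libraries with those between genotypes. All 10 alveolar macrophage markers had changes of IM over RM above 0 in both genotypes, of which 2 passed in CrePos and 4 in CreNeg. Their summed level was 571 to 1713 CPM in CrePos IM against 126 to 273 in CrePos RM. In CreNeg it was 1785 to 1901 CPM in IM against 89.4 to 220 in RM. Their part in the values of any member was not tested.

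Ccl12 separated the cell types most sharply. It had between 138 and 523 counts in each of the 6 IM libraries and no count in any of the 6 RM libraries. With a floor of 3 counts over the RM group, it was at least 231-fold higher in IM for CrePos (adjusted p = 0.000765, edgeR) and at least 193-fold higher for CreNeg (adjusted p = 0.000764). Since no RM library had a count, Ccl12 passed the filter on low counts through IM alone. The p-values of Ccl12 therefore add no support beyond its counts. Ccl2, which shares the receptor Ccr2, was 21.9-fold higher in IM for CrePos (log2 fold change 4.45, SE 0.75, adjusted p = 0.00242, edgeR) and 11.3-fold higher for CreNeg (log2 fold change 3.50, SE 0.71, adjusted p = 0.00737). Its change in CrePos was 5.72 without CrePos_RM649, and its call in CreNeg was lost with no filter on low counts (0.0537). Ccl7 did not pass, at 4.52 in CrePos (SE 1.22, adjusted p = 0.0510) and 3.39 in CreNeg (SE 1.15, adjusted p = 0.0957), although every IM library lay above every RM library in both genotypes. Without CrePos_RM650 its change in CrePos was 6.57 and passed (adjusted p = 0.0235), as it did without CreNeg_RM648 (0.00423), and in CreNeg it passed without CrePos_RM649 (0.0465). With the lane pair as a covariate it passed in CrePos (5.35, adjusted p = 0.0179) and in CreNeg (4.13, 0.0392), and with DESeq2 it passed in CrePos (0.0290).

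Ccl6 was 3.43-fold higher in IM for CrePos (log2 fold change 1.78, SE 0.37, adjusted p = 0.00988, edgeR) and 2.65-fold higher for CreNeg (log2 fold change 1.40, SE 0.37, adjusted p = 0.0274). Ccl9 was 5.25-fold higher in IM for CrePos (log2 fold change 2.39, SE 0.31, adjusted p = 0.000323, edgeR) and 2.81-fold higher for CreNeg (log2 fold change 1.49, SE 0.30, adjusted p = 0.00653). Ccl6 and Ccl9 were thus higher in IM in either genotype. Ccl6 lost its call in CrePos without CrePos_IM649 (1.24, adjusted p = 0.0658) and in a fit of the CrePos libraries alone (0.115), and in CreNeg without any 1 of the CreNeg IM libraries, CreNeg_RM648 and CreNeg_RM659 (adjusted p between 0.0573 and 0.142).

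Ccl3 was 5.80-fold higher in IM for CrePos (log2 fold change 2.54, SE 0.32, adjusted p = 0.000267, edgeR), and for CreNeg its change was 1.02 (SE 0.30, adjusted p = 0.0537). Without any 1 of the 3 CrePos RM libraries the CreNeg value passed (adjusted p between 0.0202 and 0.0381), as it did with the size factors of DESeq2 in place of TMM (0.0354), with no filter on low counts (0.0310), with DESeq2 (0.00965) and in a fit of the CreNeg libraries alone (0.00778). Ccl4 was 26.7-fold higher in IM for CrePos (log2 fold change 4.74, SE 0.82, adjusted p = 0.00307, edgeR), and for CreNeg its change was 1.49 (SE 0.70, adjusted p = 0.254). The change of Ccl4 in CrePos was 6.45 without CrePos_RM661, and its call was lost in a fit of the CrePos libraries alone (0.0666), while in CreNeg it passed without CrePos_RM650 (0.0393) and in a fit of the CreNeg libraries alone (0.0112). That the cell types differed by unequal amounts in the genotypes is the same difference of effects as above, which did not pass.

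Ccl5 ran the other way in the controls. Its values in IM lay below all those in RM in CreNeg animals (log2 fold change -2.85, SE 1.23, adjusted p = 0.202, edgeR), and it was the only member with that order, which 17.2% of all genes had in CreNeg and 6.25% in CrePos. It passed without CrePos_RM649 (0.0478), with DESeq2 (0.0303) and in a fit of the CreNeg libraries alone (0.0219). Among the T and NK cell markers, 2 of 13 tested were also lower in CreNeg IM, one of them Gzmb with 0.243 ± 0.421 CPM in IM against 33.0 ± 14.6 in RM (SD, n = 3 each; adjusted p = 0.0391, edgeR), and 1 was higher. Their part in the Ccl5 values was not tested. The change was 0.27 in CrePos animals (SE 1.18, adjusted p = 0.952), where the libraries overlapped. Ccl24 had a change of 4.22 in CrePos (SE 1.76, adjusted p = 0.240) and 1.11 in CreNeg (SE 1.53, adjusted p = 0.797), and it passed in CrePos without CrePos_RM661 (8.95, adjusted p = 0.0441) and with DESeq2 (0.0491). The eosinophil granule genes Prg2 and Epx had no count in any library. Every IM library lay above every RM library for 8 of the 9 genes in CrePos and 7 of 9 in CreNeg, against 16.0% and 18.6% of all genes. The median log2 fold change of the 9 genes was 4.22 in CrePos and 1.49 in CreNeg, the same with Ccl12 set to its bound, against 0.14 and 0.06 over all genes. With the non-exonic share as a covariate, 28 genes and no member passed in CreNeg, and 6 members passed in CrePos. That share also separated CreNeg IM (38.5 to 44.2%) from CreNeg RM (58.1 to 66.8%).

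**Figure D4:**
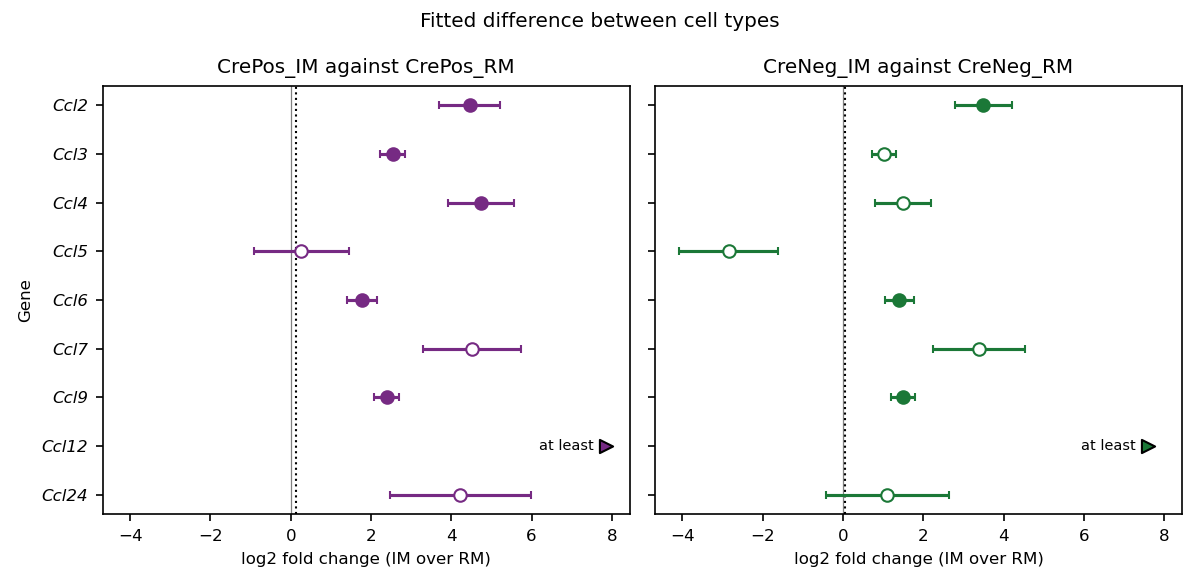
Fitted log2 fold change (horizontal axis) of each CC chemokine gene, IM over RM, in CrePos (left) and CreNeg (right), with bars for the SE, filled points for adjusted p under 0.05, triangles for the lower bound of Ccl12 and a dotted line at the median of all genes. Filled points are Ccl2, Ccl3, Ccl4, Ccl6 and Ccl9 in CrePos and Ccl2, Ccl6 and Ccl9 in CreNeg, all to the right of 0.

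Ratios between neighbouring genes within a library were narrow for some pairs and wide for others. The RPKM of Ccl3 over Ccl4 lay between 1.45 and 1.69 in CrePos IM, between 1.15 and 2.08 in CreNeg IM and between 1.80 and 2.05 in CreNeg RM. In CrePos RM it was 7.36 in CrePos_RM649 and 2.88 in CrePos_RM661, and CrePos_RM650 had 274 counts of Ccl3 and none of Ccl4. The ratio of Ccl6 over Ccl9 lay between 1.48 and 4.28 in CrePos IM, 2.92 and 4.22 in CreNeg IM, 3.12 and 5.47 in CrePos RM, and 3.32 and 3.88 in CreNeg RM, so it overlapped in all 4 groups. Ccl2 over Ccl7 lay between 0.990 and 1.52 in CrePos IM and between 1.40 and 1.58 in CreNeg IM. In RM it was 80.2 in CrePos_RM649, 0.246 in CrePos_RM650 and 1.07 in CrePos_RM661, against 1.83 in CreNeg_RM657 and 0.956 in CreNeg_RM659, and CreNeg_RM648 had 26 counts of Ccl2 and none of Ccl7. Ccl2 over Ccl12 ran from 2.43 to 4.31 in CrePos IM and from 3.24 to 6.06 in CreNeg IM.

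The genes whose pattern was most like that of each member were taken by Pearson's r of log2 CPM over the 12 libraries, among 6109 or 6110 well expressed genes. This is a description, since all genes share the libraries and the gap between the cell types. For Ccl3 these genes were Cited2 (r = 0.976) and Zfp703 (0.976), and for Ccl4 Wdr41 (0.972) and Spg21 (0.961). For Ccl9 they were Cd14 (0.987), which encodes a coreceptor for lipopolysaccharide, and Smap2 (0.973), and for Ccl6 the lysozyme genes Lyz2 (0.954) and Lyz1 (0.952). For Ccl2 they were B4galt6 (0.977) and Fcgr2b (0.973), for Ccl7 Slc7a8 (0.977) and Fcrls (0.973), and for Ccl12 Mgat4a (0.982) and Abca1 (0.968). The closest genes had lower values for Ccl5, where Acly led (0.916), and for Ccl24, where Ndufs4 led (0.933).

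The receptors of these ligands were described from a list of 15, of which 9 were tested. In CrePos RM only Ccrl2, an atypical receptor that binds chemerin, passed, at 38.2 ± 11.1 CPM against 125 ± 44.6 in CreNeg RM (SD, n = 3 each; log2 fold change -1.70, adjusted p = 0.0436, edgeR). Ccr1 averaged 1.91 ± 1.66 CPM in CrePos RM against 26.7 ± 23.5 in CreNeg RM (adjusted p = 0.0827), and Ccr2 22.8 ± 28.5 against 79.7 ± 58.1 (0.385). No receptor passed between the genotypes in IM. In CrePos animals Ccr1 (log2 fold change 5.33, adjusted p = 0.00714) and Ccrl2 (2.07, adjusted p = 0.00178) were higher in IM than in RM, and in CreNeg animals no receptor passed. Of the 13 other CC ligands in the files 7 were tested, and none passed between the genotypes. In CreNeg animals Ccl8 and the Ccr4 ligand Ccl17 were higher in IM than in RM (adjusted p = 0.0265 and 0.0485, edgeR). They were at 25.4 ± 13.2 and 7.44 ± 4.36 CPM in IM against 0.163 ± 0.282 and 0 CPM in RM. Ccl8 lost its call without any 1 of the CreNeg IM libraries, CreNeg_RM648 and CreNeg_RM659, and Ccl17 without any 1 of the CreNeg and CrePos IM libraries and the CreNeg RM libraries (adjusted p between 0.0534 and 0.142). Ccr1 lost its call with no filter on low counts (0.0736).

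Of 22 inducers and regulators of CC chemokine genes, 3 were lower in CrePos RM and none was higher, with 21 of the 22 fitted changes below 0 and a median of -0.80 against -0.10 over all genes. Tnf, an inflammatory cytokine, was at 12.3 ± 3.98 CPM in CrePos RM against 104 ± 13.1 in CreNeg RM (SD, n = 3 each; log2 fold change -3.09, adjusted p = 0.000788, edgeR). Nfkbia, which encodes an NF-kB inhibitor, was at 115 ± 5.63 against 389 ± 49.3 CPM (-1.75, adjusted p = 0.0260), and the transcription factor gene Cebpb at 273 ± 96.7 against 862 ± 156 CPM (-1.66, adjusted p = 0.0325). Cebpb is also on the list of nonclassical monocyte markers. Among 14 genes of receptor signalling, Rac2, a GTPase of leukocyte migration, was lower in CrePos RM at 35.3 ± 3.03 against 133 ± 18.8 CPM (-1.92, adjusted p = 0.0181), and no other passed. Of these genes and Ccrl2, Tnf alone kept its call without each single library, and none kept it in the fit of the RM libraries alone (adjusted p between 0.165 and 0.286). The other 4 genes, Ccrl2, Rac2, Nfkbia and Cebpb, each lost their call without CreNeg_IM648, without CreNeg_IM659 and without CreNeg_RM657 (adjusted p between 0.0507 and 0.119). Ccrl2 and Cebpb also lost theirs without CreNeg_IM660, CrePos_IM649 and CreNeg_RM648, Nfkbia without CreNeg_RM648, and Ccrl2 without CrePos_IM650 and CrePos_RM649 (adjusted p between 0.0582 and 0.117). None of the 22 or the 14 passed between the genotypes in IM.

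Between the cell types, 6 of the 22 inducers and regulators were higher in IM in CrePos animals and none was lower. They were Tnf (3.82), Nfkbia (1.88), Tnfaip3 (2.12), Zfp36 (1.39), Fos (1.65) and Junb (1.91), as log2 fold changes with adjusted p between 2.3e-05 and 0.00225 in edgeR. In CreNeg animals Tnf (1.64), Zfp36 (1.06), Fos (1.84) and Junb (1.48) were higher in IM, and the NF-kB subunit genes Nfkb1 (-0.88) and Rel (-2.21) were lower in IM (adjusted p between 0.000651 and 0.0223). Leaving out any single library ended no call among the 6 in CrePos, nor those of Tnf, Fos and Rel in CreNeg. Nfkb1 lost its call without any 1 of the CreNeg IM libraries, CreNeg_RM648 and CreNeg_RM659, Zfp36 without CreNeg_IM648 and without CreNeg_RM657, and Junb without CreNeg_RM648 (adjusted p between 0.0524 and 0.162). Of the receptor signalling genes, Arrb2 and Gng2 were higher in IM in CrePos animals, and in CreNeg animals Gng2 was higher and Dock2 lower in IM, where Gng2 kept its call without any 1 of the 3 CrePos RM libraries and lost it without each other library (adjusted p up to 0.178). In CrePos animals Gng2 lost its call without CrePos_IM661 (0.0653) and without CrePos_RM649 (0.0762). With the non-exonic share as a covariate, all 10 calls named above from the lists of ligands, signalling genes and inducers and regulators in CreNeg were lost. Then the change was -0.025 for Gng2, -0.62 for Dock2 (adjusted p = 0.764), -0.36 for Rel (0.879), -0.43 for Nfkb1 (0.745) and 0.47 for Junb (0.804), and the adjusted p was 0.429 for Tnf and Zfp36, 0.217 for Fos, 0.275 for Ccl8 and 0.745 for Ccl17. In a fit of the CrePos libraries alone Zfp36 (0.0723), Junb (0.0556) and Gng2 (0.121) lost their calls.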

How the data were processed

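RNA from about 250 sorted cells per library was made into stranded total RNA libraries and sequenced, per the labels' protocols. The deposited values are raw read counts per gene, which the authors made with cutadapt 1.12, TopHat2 2.1.1 and HTSeq 0.6.0 on GRCm38/mm10, per the submitters' processing notes. Which annotation and strand option HTSeq used is not stated in the labels or notes. Reads without a unique alignment were in a summary row of their own. The 5 HTSeq summary rows, 45.0 to 74.1% of all reads, stayed out of library sizes and tests. The share of non-exonic reads is the no-feature row.

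The 9 genes and all gene lists were chosen with earlier results of these data known. Named genes are the members, genes of the other lists past the threshold or among the 4 of their list with the highest mean CPM, the 3 highest markers of a cell type and its defining markers at 0, and the 2 genes most like each member among those with a mean log2 CPM of 4 or more. The main test was edgeR 4.0.16 (quasi-likelihood, robust, TMM, R 4.3.3) on all 12 libraries after filterByExpr with a minimum count of 10, with Benjamini-Hochberg adjustment over 14254 genes. DESeq2 1.42.0 was an alternative, as were its size factors, no filter, lane and non-exonic covariates, the compared libraries alone, a replicate block and leaving out each library. Floors of 3 counts cover counting error only. RPKM used exon lengths of GENCODE M21. The scripts were tested on simulated counts, where edgeR called 0% of 2-fold changes in either genotype comparison. Of 4-fold and 8-fold changes it called 25.4% and 25.8% in RM and 23.9% and 28.8% in IM. A member without a call, as all 9 were in IM, may thus still have changed. No 2 libraries held the same counts.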

Additional observations from a re-analysis of the deposited data

How the results depend on the processing

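Numbers of genes past the threshold moved widely with the processing, and the cause was not tested. For CrePos RM against CreNeg RM, the 60 genes became 153 with no filter, 1097 with DESeq2, 17 with the lane covariate, 351 with the non-exonic covariate, 0 in a fit of the compared libraries alone, and 4 to 570 without single libraries. The members called, 3 at first, were 4 with DESeq2, 2 with no filter and 2 with the lane covariate, 0 in the compared libraries alone and 1 to 3 without single libraries. For CrePos IM against CreNeg IM, the 41 genes became 77 with no filter, 435 with DESeq2, 0 with the lane and 0 with the non-exonic covariate, 950 in the compared libraries alone (2 members), and 0 to 234 without single libraries. The difference of the effects gave 108 genes with DESeq2 and 0 to 34 without single libraries. For CreNeg IM against CreNeg RM, the 1066 genes became 1903 with DESeq2, 28 with the non-exonic covariate (0 members), 2015 in the compared libraries alone (7 members), and 504 to 1525 (3 to 7 members) without single libraries. For CrePos IM against CrePos RM, the 652 genes became 1310 with DESeq2 (8 members), 228 in the compared libraries alone (4 members), and 346 to 1709 (5 to 7 members) without single libraries. Of 808 alternative values of single members, 736 kept their direction and side of the threshold, 33 lost their call, 23 gained one and 16 changed sign. Only values that had passed could lose a call. Among 12 leave-one-out fits of CrePos RM against CreNeg RM, Ccl3 kept its call in 12, Ccl4 in 4 and Ccl9 in 7. Among 7 other alternatives they kept it in 6, 4 and 5. Fits of the compared libraries alone hold fewer samples, and for the difference of the effects no such fit exists.

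The changes of sign were in values that had not passed, apart from Gng2. In CrePos IM against CreNeg IM, the lane covariate gave 0.48 for Ccl7 and -0.068 for Ccl12, the non-exonic covariate gave 1.71 for Ccl4, 1.71 for Ccl5 and 4.60 for Ccl24, and single libraries left out gave -0.23 to 0.062 for Ccl7 and -0.057 to 0.67 for Ccl12. The difference of the effects for Ccl6 was -0.16 with the non-exonic covariate and -0.17 to 0.61 without single libraries. In CreNeg IM against CreNeg RM, the non-exonic covariate gave -0.84 for Ccl4, -2.18 for Ccl24 and -0.025 for Gng2. In CrePos IM against CrePos RM, Ccl5 ran between -0.31 and 1.10 without single libraries. Alternatives for genes other than the members were chosen after seeing the data.

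The libraries share numbers across cell types, but nothing says that a number is an animal. For that reason the numbers were not taken as pairs in the main fit. The 5 same-numbered pairs had correlations of deviations between -0.065 and 0.081. Other pairs of the same genotype had -0.10 to 0.087. With 3 libraries per group, such values cannot show whether the libraries were paired. Between the genotypes the replicate block was a shared correlation (consensus -0.008) in limma's voom fit, so the method changed too. There 189 genes passed in RM and 174 in IM, and Ccl4 (adjusted p = 0.0628) and Ccrl2 (0.0566) lost their calls in RM. Between the cell types the block was a term for each number in edgeR, where CreNeg_IM660 and CreNeg_RM657 had no partner. In that fit 289 genes passed in CreNeg and 397 in CrePos. Calls lost were Ccr1 in CrePos (0.0583), and in CreNeg Ccl6 (0.0522), Ccl8 (0.102), Ccl17 (0.358), Gng2 (0.126), Tnf (0.0535), Nfkb1 (0.261) and Zfp36 (0.189). Counts of Ccl5, Ccl7 and Ccl24 in RM were low, which limits their precision.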
